A study of Arabidopsis thaliana with 4 samples.

Results

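The genes described here belong to the iron-deficiency response of Arabidopsis thaliana roots and were taken around AT1G47400, which encodes a peptide of the IRON MAN family. The 8 proposed genes were AT1G47400, PYE (AT3G47640), F6H1 (AT3G13610), AT3G12900, AT3G07720, AT5G05250, CGLD27 (AT5G67370) and FRO3 (AT1G23020). A gene was included when a probe set of the array was paired with it alone, which held for 6 of the 8, out of 13350 genes measured in this way on the array. CGLD27 and FRO3 had no probe set of their own in the annotation used and were left out. AT1G47400 was selected on its lower signal in sol2, and the others as iron-responsive genes, with the measured values of this comparison known. Their values in that comparison are therefore a description, given without a test.

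Root tips of seedlings grown for 4 days at 23 °C on MS medium in continuous light were profiled with 2 wild type and 2 sol2 mutant arrays. SOL2 (CORYNE) encodes a membrane-bound receptor-like kinase that takes part in sensing CLE peptides, and the series asks how its mutation affects expression at the root apex. All seedlings grew on the same medium, and the labels name neither the accession of the wild type, nor the sol2 allele, nor any change in iron supply. No probe set was paired with SOL2 alone, so the mutated gene was not analysed here. The labels also do not say whether the replicates were separate cultures, so a p-value covers only array-to-array spread, possibly technical.

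Arabidopsis takes up iron by acidifying the soil, reducing ferric iron at the root surface and importing the ferrous ion. Under iron shortage, basic helix-loop-helix (bHLH) factors such as ILR3 and bHLH104 raise the transcription of further regulators, among them PYE and the IRON MAN genes. IRON MAN peptides promote this response by binding the ubiquitin ligase BTS and its relatives, which otherwise target the bHLH factors for degradation. Roots also secrete coumarins, phenolic compounds that mobilise ferric iron, and F6H1 catalyses the committed step of their synthesis.

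The mean signals of the members differed between genotypes by unlike amounts and not all in the same direction. Whether the members differ from each other in this was not tested. AT1G47400 was 5.32-fold lower in sol2 than in wild type by the ratio of mean signals, and AT5G05250 was 2.13-fold lower. PYE and AT3G07720 had slightly lower means in sol2, with ratios of sol2 to wild type of 0.834 and 0.825. F6H1 had the higher mean in sol2, with a ratio of 1.40, and its genotypes overlapped. AT3G12900 lay at background on all 4 arrays. No signal of one gene was set against that of another, because probe sets differ in brightness.

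**Figure D1:**
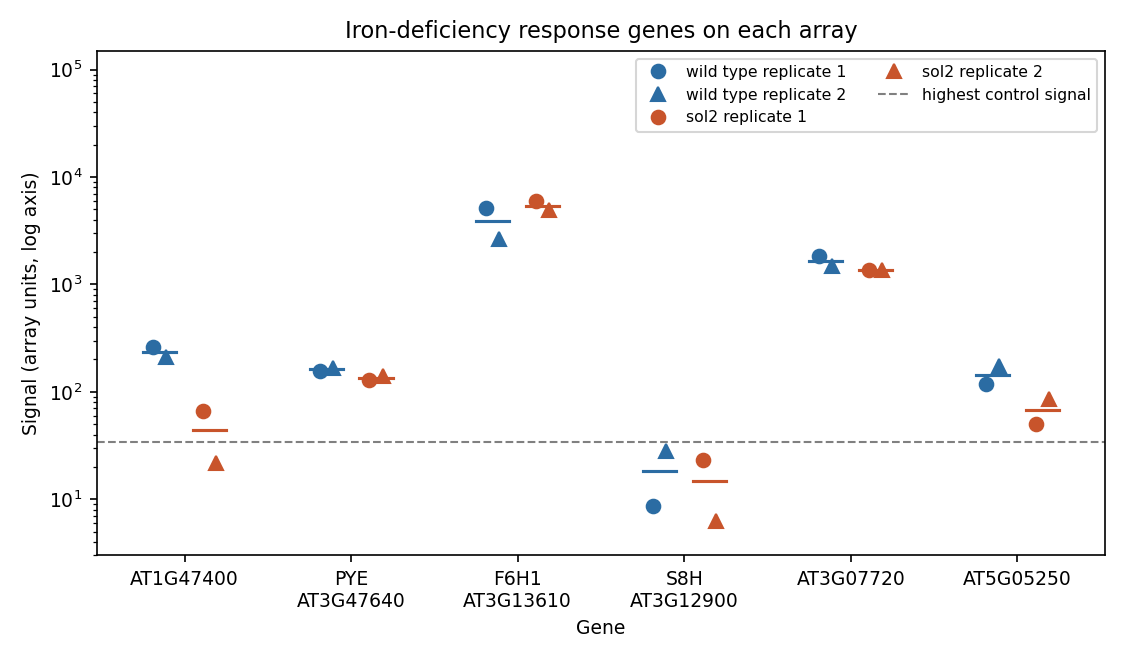
Signal of the 6 measured genes on each array, on a log axis, with wild type in blue, sol2 in orange, replicate 1 as circles and replicate 2 as triangles; horizontal bars are the means of 2 arrays and the dashed line is the highest signal of control probe sets for bacterial transcripts (34.1). The orange points of AT1G47400 lie below its blue points, 1 of them under the dashed line, and all points of AT3G12900 lie under it.

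The signal of AT1G47400, the IRON MAN peptide gene, was 260 and 209.8 on wild type arrays 1 and 2, against 66.7 and 21.6 on sol2 arrays 1 and 2. Both sol2 arrays lay below both wild type arrays, and the lowest and highest of the 4 array-by-array ratios of wild type to sol2 were 3.15 and 12.0. The means were 235 ± 35.5 in wild type and 44.2 ± 31.9 in sol2 (SD, n = 2). On the scale of log2(signal + 18.4), where 18.4 is the 20th percentile of all values, the difference was -2.11 ± 0.37 (SE). That scale damps noise at low signal and understates the change of dim genes. Each SE of a log2 difference given here comes from the limma fit, which draws a gene's spread towards that of other probe sets. The replicate SD of AT1G47400 itself within genotypes was larger, at 0.56 on this scale. Among the 13648 probe sets above the filter on low values, 14 had a difference at least as low, AT1G47400 included. Because the gene was chosen for its lower signal in sol2, this rank restates that choice and is no evidence. Sol2 array 2 fell within the range of 27 control probe sets for bacterial transcripts, whose highest signal was 34.1. With that array set to 34.1 the ratio of wild type to sol2 was 4.66. The log2 difference was -1.36 with the 40th percentile as pseudocount and -2.54 with the 5th. In a bulk sample such as a root tip, fewer cells that express the gene and less RNA in each of them cannot be told apart.

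The only other measured regulator among the chosen genes was PYE, a bHLH factor known to repress genes of iron distribution during iron shortage. Its signal was 157.3 and 167.1 in wild type, against 129.4 and 141.0 in sol2. The means were 162 ± 6.93 and 135 ± 8.20 (SD, n = 2). The sol2 arrays were the lower ones without overlap, although the distance between the nearest arrays of the 2 genotypes was small, with a ratio of wild type to sol2 of 1.12. Its log2 difference was -0.23 ± 0.23 (SE), as large as the standard error of the fit. That error borrows spread from other probe sets, and the replicate SD of PYE itself within genotypes was 0.067 on the log2 scale.

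Of the coumarin genes, F6H1 had signals of 5109 and 2638 in wild type, against 5923 and 4894 in sol2. Wild type array 1 lay between both sol2 arrays, so the genotypes overlapped. The means were 3874 ± 1748 in wild type and 5409 ± 728 in sol2 (SD, n = 2). The log2 difference was 0.55 ± 0.29 (SE), against a difference of 0.95 between the wild type arrays themselves. It was 1.02 when wild type replicate 1 was left out and 0.08 when wild type replicate 2 was left out, so the size of the difference rests on which wild type array is used. AT3G12900, also called S8H, encodes the hydroxylase that makes fraxetin from scopoletin, and fraxetin is a coumarin secreted under iron shortage. It had wild type signals of 8.6 and 28.1 and sol2 signals of 23.2 and 6.3, all at or under the control maximum of 34.1. It was not above background on any array, and no fold is given.

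AT3G07720 encodes a kelch-repeat protein whose transcript is known to rise in iron-deficient roots. Its wild type signals were 1830 and 1480, and its sol2 signals 1370 and 1361. The means were 1655 ± 247 and 1365 ± 6.29 (SD, n = 2). Both sol2 arrays were lower, by 1.08-fold to 1.34-fold over the 4 pairs of arrays. The sol2 arrays nearly coincided, while the wild type arrays differed from each other by 0.30 on the log2 scale, which exceeds the genotype difference of -0.27 ± 0.19 (SE). It was -0.11 when wild type replicate 1 was left out and -0.42 when wild type replicate 2 was left out.

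AT5G05250 encodes a protein of unknown function counted among the iron-deficiency-responsive genes of roots. Its wild type signals were 117.2 and 172.6, and its sol2 signals 50.6 and 85.4. Both sol2 arrays lay below both wild type arrays, and all 4 were above the control range. The means were 145 ± 39.2 and 68.0 ± 24.6 (SD, n = 2). The log2 difference was -0.93 ± 0.31 (SE), and pseudocounts at the 40th and 5th percentile gave -0.60 and -1.09. Within each genotype replicate 2 was the brighter array for this gene, by 0.49 in wild type and 0.59 in sol2 on the log2 scale. For AT1G47400 replicate 1 was the brighter array, by 0.29 in wild type and by 1.09 in sol2, where array 2 lay under the control maximum. No label ties equal replicate numbers together, so the opposite order in these members is only described.

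Of the 5 members above the filter, 4 had both sol2 arrays below both wild type arrays, and F6H1 overlapped. Over all tested probe sets that pattern was met by 18.6% towards lower and by 17.5% towards higher signal in sol2. Since the genes were proposed with this comparison in view, nothing is read from this count. AT1G47400 also lay above the filter only through its wild type signal, and without wild type replicate 1 it was below it.

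The wider pathway was followed through 6 lists of iron genes and 1 list of zinc and copper deficiency genes, with 81 genes besides the chosen ones. Only 14 of these had a probe set of their own and 11 lay above the filter, so the lists were thinly measured. None of the 11 passed the test in either direction (limma, Benjamini-Hochberg adjustment over 13648 probe sets), against 0.945% of all tested probe sets called higher and 0.3% called lower. At an unadjusted p under 0.05 (limma) there was 1, COSY, where 8.9% of all tested probe sets reached that level. No gene of the lists of iron uptake and reduction, which holds IRT1 and FRO2, or of iron storage, which holds the ferritins, had a probe set of its own.

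None of the other measured regulators of the iron response passed the test. Of 18 further genes on this list 8 had a probe set and 7 were above the filter, with a median log2 difference of 0.04, against 0.0043 for all tested probe sets. The differences of the 7 ran from -0.20 to 0.26. The largest was that of bHLH121, a partner of ILR3-type factors, at 99.8 and 181.3 in wild type, against 157.3 and 175.2 in sol2. Its sol2 values lay within the wild type range, and its log2 difference was 0.26 ± 0.30 (SE, adjusted p = 0.939, limma).

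BTSL2, a ubiquitin ligase related to BTS, had 330.2 and 470.9 in wild type, against 427.3 and 520.5 in sol2, which overlapped (log2 0.25 ± 0.24, adjusted p = 0.922, limma). Its relative BTSL1 gave 0.04 ± 0.22 with the brighter of its probe sets, and the dimmer one was below the filter. ILR3 itself had 1490 and 1380 in wild type, against 1420 and 1273 in sol2 (log2 -0.09 ± 0.18, adjusted p = 0.973, limma). Among the bHLH factors of the same subgroup, bHLH115 gave -0.05, and its genotypes overlapped. The genotypes did not overlap for bHLH104, lower in sol2 on both arrays (-0.20 ± 0.19), and for bHLH34, higher on both (0.22 ± 0.23), with adjusted p of 0.913 and 0.925 (limma). ILR3, BTSL1, bHLH115, bHLH104 and bHLH34 were named after their values had been seen. bHLH101, a factor strongly induced by iron shortage, was at or under the control maximum on 3 of 4 arrays, the exception being wild type array 1 at 40.8.

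**Figure D2:**
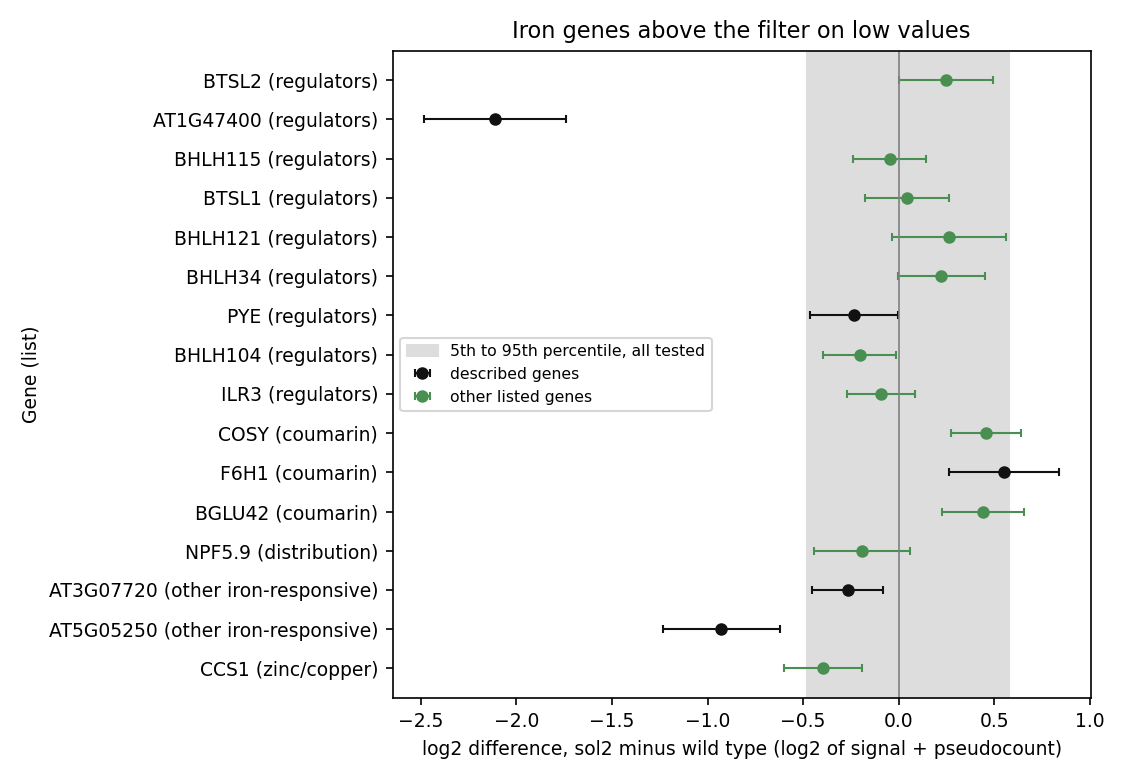
Log2 difference of sol2 minus wild type, on the log2(signal + 18.4) scale, for the chosen genes (black) and other listed genes (green) above the filter; bars are standard errors of the fit and the grey band spans the 5th to 95th percentile of all 13648 tested probe sets (-0.48 to 0.58). AT1G47400 and AT5G05250 lie outside the band on the lower side, and every other listed gene lies within it.

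Both other coumarin genes above the filter had higher signal in sol2 on each array, without passing the test. COSY, the coumarin synthase that closes the lactone ring, had 2414 and 1880 in wild type, against 3028 and 2829 in sol2. The genotypes did not overlap, and the log2 difference was 0.45 ± 0.18 (SE, unadjusted p = 0.0384, adjusted p = 0.500, limma). BGLU42, a beta-glucosidase known to release coumarins from their stored glucosides, had 622.9 and 850.8 in wild type, against 968 and 1025 in sol2. These too did not overlap (log2 0.44 ± 0.21, adjusted p = 0.650, limma). Over all tested probe sets, 17.5% were higher in sol2 without overlap. COSY was called with a replicate block (adjusted p = 0.0409, limma). That setting called 660 probe sets higher in sol2, against 129 without the block. Without wild type replicate 2 the log2 difference of BGLU42 was 0.66.

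On the list of iron chelation and distribution, NPF5.9, a transporter of the nitrate and peptide family, was the only gene above the filter. Its signals were 137.2 and 102.4 in wild type, against 105.1 and 98.3 in sol2, with overlap (log2 -0.19 ± 0.25, adjusted p = 0.945, limma). Of zinc and copper deficiency genes only CCS1, the copper chaperone of superoxide dismutase, was tested. Its signal was 866.9 and 1110 in wild type, against 712.8 and 771.1 in sol2. The sol2 arrays were lower without overlap, and the difference did not pass the test (log2 -0.40 ± 0.20, adjusted p = 0.700, limma).

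The genes nearest to AT1G47400 in their 4-array pattern lay outside the iron lists. Likeness was the Euclidean distance between log2(signal + 18.4) values, each gene centred on its own mean over the 4 arrays, among 7403 other probe sets of 1 gene above the filter. The nearest was AT1G29180 (distance 0.47), followed by AT1G30990 (0.69), the sugar exporter gene SWEET11 (0.72), the methionine sulfoxide reductase gene MSRB6 (0.72) and the cytochrome P450 gene CYP71B23 (0.80). All 5 had both sol2 arrays below both wild type arrays, and in all 5, as in AT1G47400, replicate 1 was the brighter array within each genotype.

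AT1G29180 had 343.3 and 295.4 in wild type, against 58.4 and 25.4 in sol2, while MSRB6 had 499.2 and 282.4 in wild type, against 166.3 and 85.9 in sol2. Sol2 array 2 was thus the lowest of the 4 arrays for both, as for AT1G47400. On that array AT1G29180, at 25.4, and SWEET11, at 29.9, lay under the control maximum of 34.1, as AT1G47400 did. By the same distance AT5G05250 ranked 315 among the compared probe sets, AT3G07720 ranked 1063, PYE ranked 1561 and F6H1 ranked 6759. These distances rest on 4 arrays that all genes share and include the genotype difference by which AT1G47400 was chosen, so they carry no test. Genes picked as nearest share its pattern through that choice. The other members are few beside 7403 probe sets, so nearer genes outside the lists were to be anticipated.

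**Figure D3:**
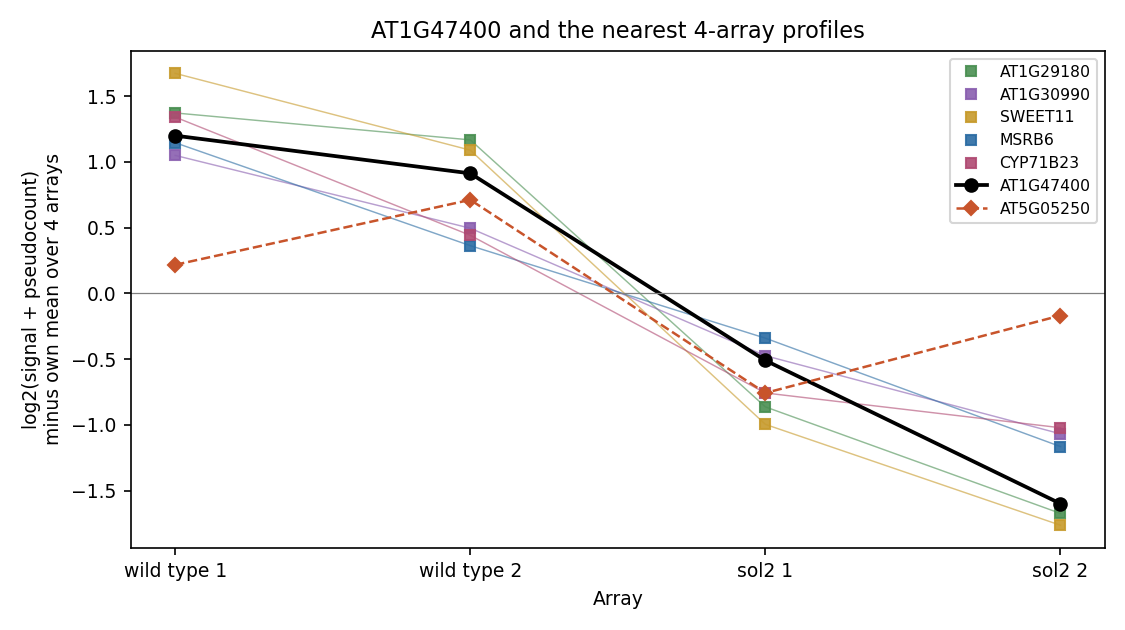
Log2(signal + 18.4) minus the gene's own mean over 4 arrays, by array, for AT1G47400 (black), its 5 nearest profiles (coloured squares) and AT5G05250 (dashed). The 5 nearest genes step down between wild type array 2 and sol2 array 1 and again to sol2 array 2, while AT5G05250 is higher on sol2 array 2 than on sol2 array 1. On sol2 array 2 the signals of AT1G47400, AT1G29180 and SWEET11 were under the control maximum.

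None of the tested genes next to the members on the chromosome was called. In the TAIR10.1 gene order, 36 protein-coding genes lay within 3 places of a measured member, of which 18 had a probe set of their own and 11 were tested. By limma 0 of the 11 had an adjusted p under 0.05, against 1.25% of all tested probe sets, and 0 had an unadjusted p under 0.05, against 8.9%. Their log2 differences ran from -0.41 to 0.24, and 2 of the 11 were lower in sol2 without overlap, against 18.6% of all tested probe sets. AT1G47410, the measured gene directly beside AT1G47400, had 275.8 and 300.7 in wild type, against 242.2 and 256.5 in sol2 (log2 -0.20 ± 0.21, adjusted p = 0.933, limma). The other direct neighbour of AT1G47400 is AT1G47395, which encodes another IRON MAN peptide and was not analysed here. Whether its RNA also binds the probes of AT1G47400 was not tested.

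Markers of cell types and RNA quality were measured beside these results, with most markers lacking a probe set of their own. For phloem only SWEET11 of 4 markers was measured, at 330.5 to 504.7 in wild type and 29.9 to 63.8 in sol2. For green tissue 2 of 6 were measured, with a summed signal of 365 to 383 in wild type and 242 to 255 in sol2. Of these RCA was lower in sol2 without overlap and PSBW overlapped, and neither passed the test (adjusted p = 0.372 and 0.968, limma). The 5 measured root hair markers of 8 summed to 9821 to 13867 in wild type and 9501 to 11113 in sol2. Of these, PRX44 (log2 -0.89, adjusted p = 0.238, limma), EXPA18 (-0.37) and GH9C1 (-0.29) were lower in sol2 without overlap, PRX7 was higher without overlap (0.45), EXPA7 overlapped (-0.14), and none passed the test. The 1 root cap marker of 5, RCPG, had 286 to 516 in wild type and 576 to 631 in sol2 (adjusted p = 0.599, limma). Xylem and endodermis had 1 measured marker each, with overlapping genotypes, and none of 3 stele markers was measured. None of the measured markers was at or under the control maximum on all arrays. The ratio of 3′ to 5′ ubiquitin signal was 3.02 and 3.87 in wild type, against 2.46 and 2.29 in sol2. That of actin was 8.45 and 24.5 in wild type, against 11.6 and 36.9 in sol2. It was higher in sol2 at each replicate number, which no label pairs, and higher in replicate 2 in both genotypes. That of GAPDH lay between 0.971 and 1.07. Of all measured markers only SWEET11 passed the test, lower in sol2 (adjusted p = 0.00782, limma). Without the filter on low values it did not pass (adjusted p = 0.0725, limma), and its sol2 array 2 was under the control maximum. The gene lists were made with earlier results of these data known. The part of these markers and ratios in the members' differences was not tested.

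None of the 5 members above the filter changed direction under the 12 settings tried, but many of these settings could not change it. The filters, the prior variance and the replicate block leave the log2 difference as it is. For the 4 members without overlap, leaving out an array or changing the pseudocount cannot reverse it. The sizes for AT1G47400, AT5G05250, AT3G07720 and F6H1 depended on the pseudocount or on 1 array. With 1 sol2 array left out the log2 difference of AT1G47400 was -2.66 or -1.57, and with 1 wild type array left out it lay between -2.25 and -1.97. The range of AT5G05250 with arrays left out was -1.22 to -0.63, and that of PYE -0.29 to -0.18.

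**Figure D4:**
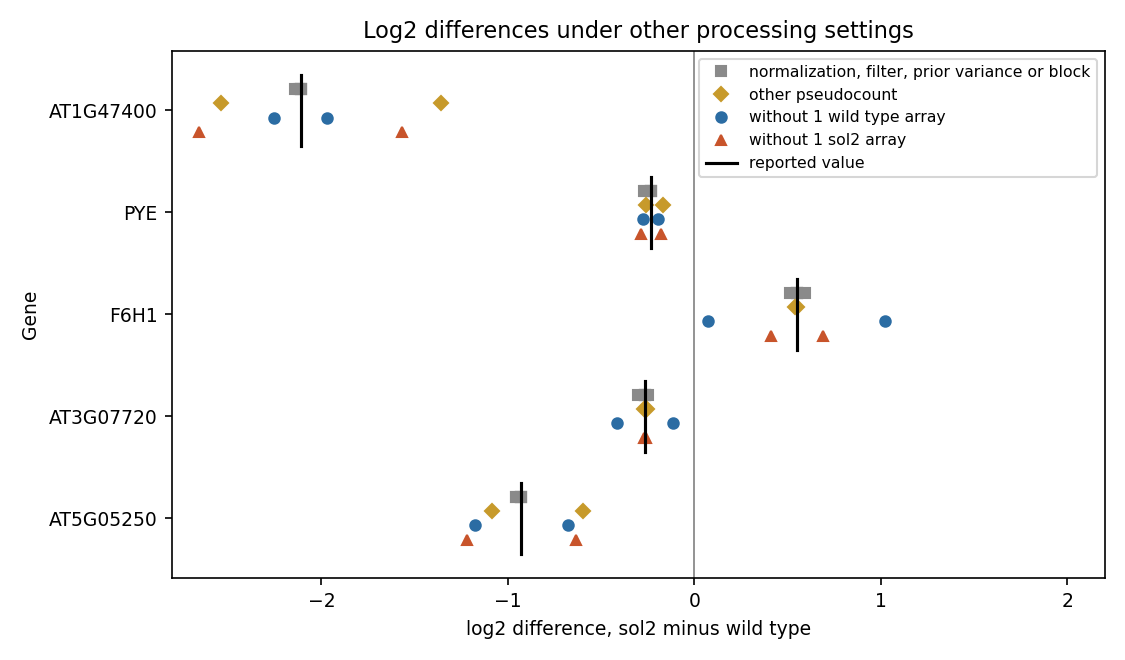
Log2 difference of sol2 minus wild type for the 5 members above the filter under each processing setting; black lines are the reported values, grey squares other normalizations, filters, prior variances or the block, diamonds other pseudocounts, circles fits without 1 wild type array and triangles fits without 1 sol2 array. No point of a gene crosses 0, and the 2 fits of F6H1 that leave out a wild type array lie far apart, at 0.08 and 1.02. For genes without overlap between genotypes, leaving out an array or changing the pseudocount cannot move a point across 0.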

How the data were processed

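The authors deposited 1 linear intensity per probe set and array, for 2 wild type and 2 sol2 arrays hybridised with biotin-labelled cRNA, per the labels. GCOS is the only tool in the submitters' processing notes; its algorithm and scaling target are not given in the sources used here. On every array the mean of the middle 96% of values was 500.05 to 500.06, which shows scaling to a common level before deposit, and no rescaling was added. Depth has no counterpart on arrays, and their number limits the precision.

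Of 22746 probe sets that were not controls, 13513 named 1 gene, 503 named several and 8730 named none in the platform annotation. Loci came from RefSeq (TAIR10.1) by gene ID for 13436 probe sets and by name for 72. In the gene and marker lists, the brightest probe set was used where a gene had several. The nearest profiles were ranked over all probe sets of 1 gene above the filter. Probe sets whose mean log2(signal + 18.4) reached the 40th percentile were tested with limma 3.58.1 in R 4.3.3 (lmFit, eBayes with trend, two-sided), genotype being the only term. Tables and figures used Python 3.11.15, numpy 2.4.6, pandas 2.3.3 and matplotlib 3.10.9. On simulated data, with each array drawn independently, the limma step was tested for recovery of known changes. That simulation held no spread shared by arrays of equal replicate number, so it cannot show the effect of such spread on the calls.

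The members and gene lists were chosen with earlier results of these data known. Named were all members, per list the called genes or the 2 with the largest difference, and the 5 profiles nearest to AT1G47400. Alternatives covered normalization, pseudocount, filter, prior variance, a replicate block and each array left out.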

Additional observations from a re-analysis of the deposited data

How the results depend on the processing

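All alternatives were planned. The counts of called probe sets, 129 higher and 41 lower in sol2, were 60 and 9 without a filter on low values, 68 and 15 with the 60th-percentile filter, and 660 and 462 with a replicate block. With arrays left out in turn they ran from 92 to 872 and from 49 to 529, highest without wild type replicate 2; without wild type replicate 1 they were 420 and 132. Other filters alter how many probe sets are tested; otherwise the cause was not tested. Where a genotype kept 1 array, it was assumed to vary like the other. Other iron list genes called higher numbered 0, but 1 (COSY) with the replicate block, and 0 to 1 with arrays left out (BGLU42, without wild type replicate 2); none was called lower under any setting. The log2 difference of AT1G47400 was -1.36 with the 40th-percentile and -2.54 with the 5th-percentile pseudocount. None of the 5 members above the filter changed sign under any setting. For members without overlap, leaving out an array or changing the pseudocount could not change it. AT3G12900, at background on all arrays, changed sign. With arrays left out the ranges were -2.66 to -1.57 for AT1G47400, -0.29 to -0.18 for PYE, 0.08 to 1.02 for F6H1, -0.42 to -0.11 for AT3G07720 and -1.22 to -0.63 for AT5G05250. No label ties equal replicate numbers together; over all tested probe sets, the replicate 1 minus replicate 2 differences of wild type and of sol2 had a correlation of 0.441. With 2 arrays per genotype, signals near the control maximum limit what can be said of AT3G12900 and bHLH101. They also limit what can be said of the size of the AT1G47400 difference, since its sol2 array 2 lay under that maximum.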
